A study of Mus musculus with 18 samples.

Results

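The insulin-like growth factor (IGF) genes are described here as 10 genes of 55335 in the count tables, taken by name: the ligands Igf1 and Igf2, the receptors Igf1r and Igf2r, and the binding proteins Igfbp2, Igfbp3, Igfbp4, Igfbp5, Igfbp6 and Igfbp7. They were followed in O9-1 cells, a mouse neural crest (NC) cell line, during osteogenic induction. Bulk RNA-seq of polyadenylated RNA was made from 18 libraries, 3 replicates in each of 6 groups. All groups were wild-type cells with an siRNA. Ctrl+vehicle cells carried control siRNA (siCtrl) without FGF2, Ctrl+FGF2 cells carried siCtrl with FGF2, and Y/T dKD+FGF2 cells carried siRNA against Yap and Taz with FGF2, each collected at d2.5 and at d5. No group had the knockdown without FGF2, so the knockdown was read only in the presence of FGF2. All libraries come from 1 cell line, and the labels do not say whether replicates were separate cultures. The p-values therefore measure the spread between these libraries, which may be technical. The labels give each day its own batch, so that day and batch cannot be told apart.

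IGF1 and IGF2 are secreted hormones that act through IGF1R, a receptor tyrosine kinase that signals to the PI3K-AKT and MAPK pathways, and they promote growth, survival and matrix synthesis in bone-forming cells. IGF2R, the mannose-6-phosphate receptor, takes up IGF2 for degradation and sorts lysosomal enzymes. The binding proteins hold IGFs outside the cell and limit or prolong their access to the receptor, and proteases such as PAPP-A release the ligand from IGFBP4 and IGFBP5. IGFBP7 binds IGFs only weakly.

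Gene counts per library ranged from 10377151 to 14698525. Levels are normalized CPM (counts divided by a TMM-scaled library size, for all 18 libraries together), and a gene is called where the adjusted p of edgeR's quasi-likelihood test was under 0.05 (Benjamini-Hochberg). The siRNA targets were lower in the Y/T dKD+FGF2 than in the Ctrl+FGF2 libraries. Yap1 was at 51.5% of its Ctrl+FGF2 level at d2.5 and at 46.1% at d5, and Wwtr1, which encodes Taz, at 60.8% and 57.5%. At d2.5 Wwtr1 had a mean of 140 CPM in Ctrl+vehicle, 222 CPM in Ctrl+FGF2 and 136 CPM in Y/T dKD+FGF2. The Y/T dKD+FGF2 libraries of d2.5 thus overlapped those of Ctrl+vehicle for Wwtr1. Of 8 NC markers, Sox10 had 0 counts in every library, while Prrx1 led the list and the summed level of the list was between 1508 and 2511 CPM. Prrx1 alone had group means of 1302 to 2218 CPM, so that most of these sums is 1 gene. Markers of the osteoblast lineage summed to 13250 to 13410 CPM in Ctrl+vehicle, 2299 to 2426 CPM in Ctrl+FGF2 and 2163 to 2299 CPM in Y/T dKD+FGF2 at d2.5, with Col1a1 leading. At d5 the same 6 genes summed to 31100 to 33110, 15860 to 17610 and 21890 to 23260 CPM. Col1a1 alone was at 31910 CPM in Ctrl+vehicle at d5, so that these sums are nearly those of 1 gene. Of the other 5, Alpl, Ibsp and Bglap had a lower mean in Ctrl+FGF2 than in Ctrl+vehicle at d5, whereas Runx2 had a higher one (179 against 137 CPM) and Sp7 was at 44.5 against 35.8 CPM with overlapping libraries. The 5 chondrocyte markers summed to 607 to 854 CPM in Ctrl+vehicle at d2.5, against 45.9 to 51.5 and 64.4 to 65.9 CPM with FGF2 without and with the knockdown, and to 278 to 424 CPM over the d5 libraries. The lists of macrophage and endothelial markers stayed at or below 5.50 CPM in sum with Lyz2 and Cdh5 at 0 counts, and that of adipocytes at or below 55.0 CPM with Cidec at 0. In bulk RNA, fewer cells of a type and less RNA per cell cannot be told apart.

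Promoter windows are printed for Igf1 and 4 binding proteins, chosen for their differences between groups. They are shown since Yap and Taz act through DNA-binding partners whose sites may be sought around a start. Igfbp6 also differed between groups, and its window was searched but is not printed. Each window runs from 250 bases before to 50 bases after a RefSeq start (GRCm38.p6), and all 10 genes had at least 1 window, 14 in all. The motifs searched on both strands were GGAATG (TEAD, the DNA-binding partner of Yap and Taz), TGANTCA (AP-1) and TGTGGT (RUNX). Capitals mark a match.
Igf1 (chr10:87860861-87861160, plus strand): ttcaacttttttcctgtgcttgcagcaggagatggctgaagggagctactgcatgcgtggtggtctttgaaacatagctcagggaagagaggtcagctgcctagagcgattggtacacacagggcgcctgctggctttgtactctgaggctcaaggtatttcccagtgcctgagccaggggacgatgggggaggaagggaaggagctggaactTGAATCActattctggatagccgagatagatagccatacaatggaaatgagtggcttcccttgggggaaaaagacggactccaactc
Igfbp3 (chr11:7213874-7214173, minus strand): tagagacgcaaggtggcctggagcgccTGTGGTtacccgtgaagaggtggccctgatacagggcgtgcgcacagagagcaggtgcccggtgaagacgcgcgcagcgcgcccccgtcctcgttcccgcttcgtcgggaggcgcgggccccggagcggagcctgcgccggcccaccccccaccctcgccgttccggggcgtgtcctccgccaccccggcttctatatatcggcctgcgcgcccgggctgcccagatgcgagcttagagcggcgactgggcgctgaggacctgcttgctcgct
Igfbp4 (chr11:99040994-99041293, plus strand): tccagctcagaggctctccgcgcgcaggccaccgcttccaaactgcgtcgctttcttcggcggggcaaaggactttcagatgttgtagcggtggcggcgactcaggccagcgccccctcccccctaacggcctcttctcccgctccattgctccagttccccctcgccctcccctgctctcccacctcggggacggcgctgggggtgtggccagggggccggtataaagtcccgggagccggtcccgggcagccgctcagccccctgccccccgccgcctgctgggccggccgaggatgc
Igfbp5 (chr1:72874816-72875115, minus strand): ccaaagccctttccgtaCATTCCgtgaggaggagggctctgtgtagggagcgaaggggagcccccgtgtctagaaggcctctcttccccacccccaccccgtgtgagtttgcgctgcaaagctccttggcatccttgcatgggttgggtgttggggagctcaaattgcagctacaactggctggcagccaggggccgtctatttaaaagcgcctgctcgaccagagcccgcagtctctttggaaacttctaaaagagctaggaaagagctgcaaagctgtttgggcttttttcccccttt
Igfbp7 (chr5:77407996-77408295, minus strand): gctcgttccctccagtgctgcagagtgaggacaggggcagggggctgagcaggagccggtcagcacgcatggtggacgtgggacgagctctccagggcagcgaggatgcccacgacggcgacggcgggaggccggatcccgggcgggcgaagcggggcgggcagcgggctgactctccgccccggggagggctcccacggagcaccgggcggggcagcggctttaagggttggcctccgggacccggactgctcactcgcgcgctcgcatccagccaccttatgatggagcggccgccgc
The Igfbp5 window held 1 TEAD match, on the reverse strand and starting 233 bases before the start. The Igf1 window held 1 AP-1 match 37 bases before the start, and the Igfbp3 window 1 RUNX match 223 bases before it. No such letters were found in the Igfbp4 and Igfbp7 windows. None were found either in the window of Igfbp6, the gene of the 10 with the largest fall with the knockdown at d2.5. Of all 14 windows, 4 held the TEAD letters, 2 the AP-1 letters and 1 the RUNX letters. Among all 32851 windows of the table, 14.7% held the TEAD letters, 7.81% the AP-1 letters and 16.8% the RUNX letters, so that single matches are common. A match in these windows was not tested for binding.

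Igf1 held more counts than the other ligand gene, Igf2, in every group. Igf1 maps to chromosome 10 (87858265 to 87937042, plus strand), in GRCm38 as are all gene coordinates given here. At d2.5 its level was 7.04, 6.71 and 5.49 CPM in the Ctrl+vehicle libraries, 0.775, 1.31 and 0.936 CPM in Ctrl+FGF2 and 0.994, 1.09 and 1.11 CPM in Y/T dKD+FGF2. The d5 libraries stood at 795, 752 and 756 CPM in Ctrl+vehicle, 248, 260 and 257 CPM in Ctrl+FGF2 and 252, 278 and 266 CPM in Y/T dKD+FGF2. On both days every Ctrl+vehicle library lay above all libraries with FGF2, while the libraries with FGF2 overlapped whether or not they carried the knockdown. With FGF2, Igf1 fell by 2.68 ± 0.20 (SE) on the log2 scale at d2.5 (6.43-fold lower, adjusted p = 4.6e-13) and by 1.58 ± 0.04 at d5 (2.98-fold lower, adjusted p = 2.2e-14). The FGF2 effect was smaller at d5 by 1.08 ± 0.20 on the log2 scale (adjusted p = 2.5e-05). Igf1 did not pass the test for the knockdown, with a log2 difference of 0.08 ± 0.31 at d2.5 (adjusted p = 0.892) and 0.05 ± 0.04 at d5 (adjusted p = 0.403). Y/T dKD+FGF2 cells thus held 34.7% of the Ctrl+vehicle level at d5 (log2 fold change -1.53 ± 0.04, adjusted p = 6.7e-14).

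Between the days Igf1 had the largest difference of the 10 genes in each of the Ctrl+vehicle and Ctrl+FGF2 groups. The d5 libraries were higher than the d2.5 libraries by 6.89 ± 0.06 on the log2 scale for Ctrl+vehicle, and with FGF2 by 7.98 ± 0.09 without and 7.95 ± 0.09 with the knockdown (adjusted p = 5.8e-35, 2.6e-33 and 9.8e-33). In summed counts of 3 libraries, Ctrl+vehicle went from 277 to 25357, and Ctrl+FGF2 from 43 to 8753. The corresponding ratios after scaling were 118.7 (95% interval 105.5 to 134.2) and 254.6 (188.9 to 352.1), where the intervals cover counting error only. The summed level of smooth muscle markers, led by Acta2, also differed between days and groups. It was 167 to 231, 22.6 to 23.7 and 13.7 to 15.3 CPM at d2.5 in the order vehicle, FGF2, knockdown. At d5 it was 2032 to 2146, 2674 to 3070 and 2111 to 2272 CPM in the same order. Acta2 alone had group means of 187, 21 and 13 CPM at d2.5 and 2006, 2801 and 2120 CPM at d5. These sums are thus nearly those of Acta2 alone. The part of the smooth muscle markers in the levels of Igf1, Igfbp4 and Igfbp7, and that of the osteoblast and chondrocyte markers, was not tested.

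**Figure D1:**
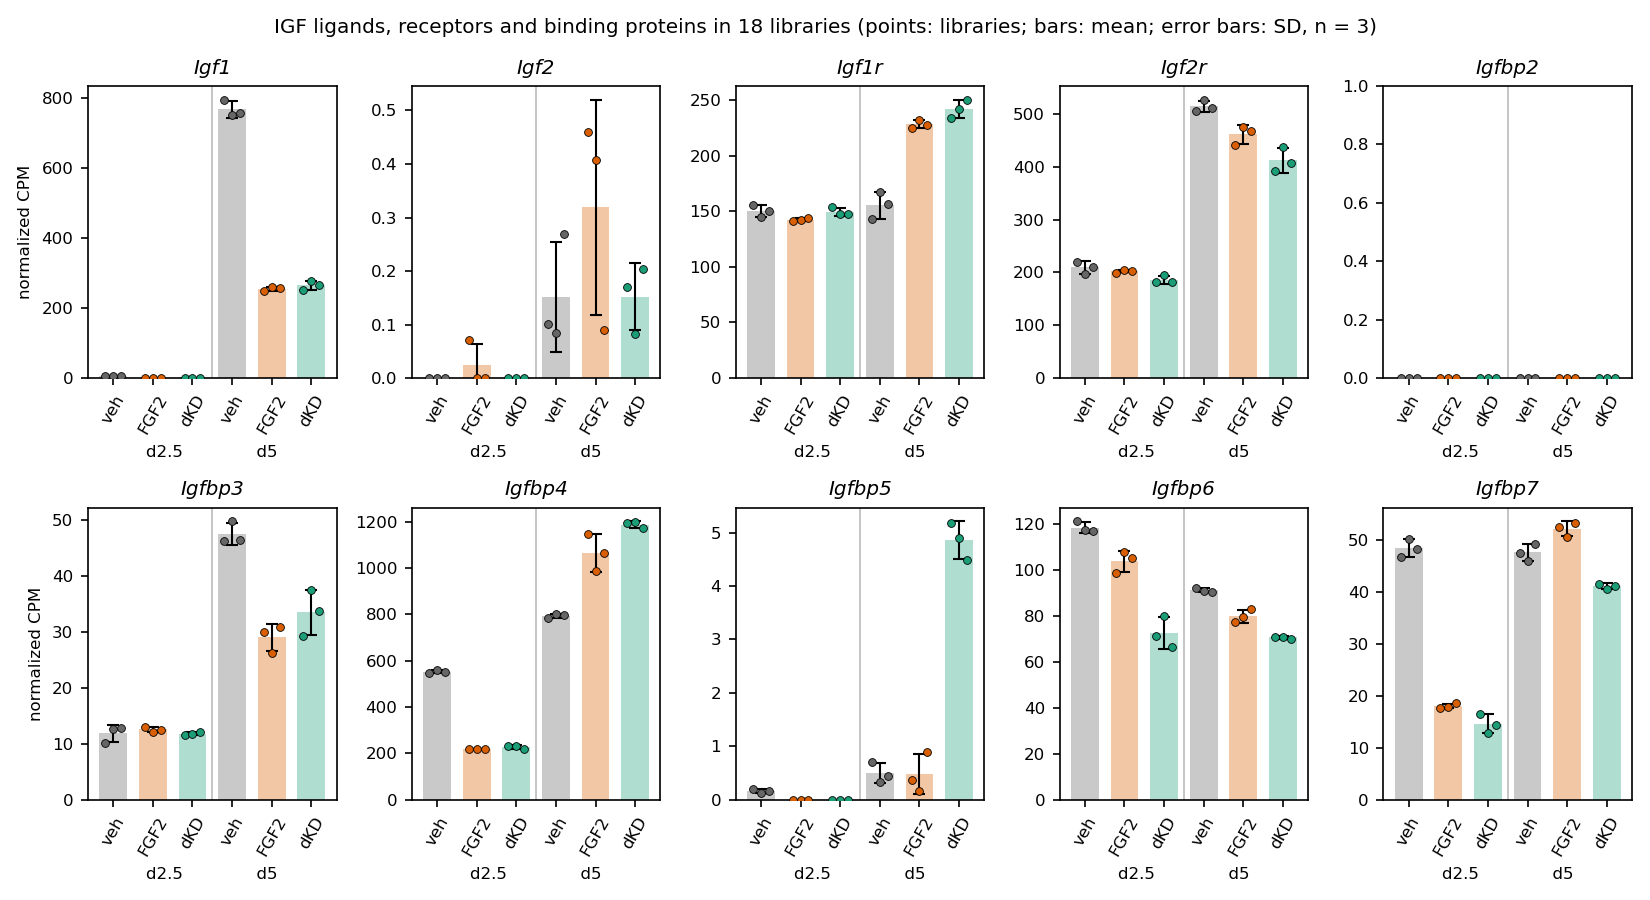
Normalized CPM (y axis, a scale of its own for each gene) of the 10 IGF genes in the 6 groups (x axis; veh, Ctrl+vehicle; FGF2, Ctrl+FGF2; dKD, Y/T dKD+FGF2; d2.5 left and d5 right of the line). Points are libraries, bars the mean and error bars the SD (n = 3); Igf1 rose from 5.49 to 7.04 CPM at d2.5 to 752 to 795 CPM at d5 in Ctrl+vehicle, Igfbp5 stood at 4.48 to 5.19 CPM only in Y/T dKD+FGF2 at d5, and Igfbp2 was at 0.

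Igf2, the fetal ligand, had few counts, and its level cannot be read from them. It maps to chromosome 7 (142650766 to 142666816, minus strand), and 22 counts fell on it over all 18 libraries, with at most 5 in 1 library and a count in 10 libraries. The d5 libraries held 5 counts for Ctrl+vehicle, 11 counts for Ctrl+FGF2 and 5 counts with the knockdown, and the d2.5 libraries held 1 count in all. Igf2 did not pass the filter on low counts and was not tested. Of its 5723 exon bases, 3596 (62.8%) also belong to exons of Gm49394, an annotated gene on the same strand that had 0 counts. The files have the layout of a count in which a read over exons of both genes is given to neither, so reads on the shared bases may be missing from the counts of Igf2. A further 98 bases are shared with Igf2os on the opposite strand, which had 3 counts over the 18 libraries.

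H19, the noncoding RNA that is the imprinted neighbour of Igf2, was expressed. Its level at d2.5 was 42.5, 16.7 and 27.5 CPM in Ctrl+vehicle, 2.54, 2.55 and 2.67 CPM in Ctrl+FGF2 and 3.40, 4.74 and 3.48 CPM in Y/T dKD+FGF2. The d5 values were 30.7, 66.3 and 47.7 CPM, 56.7, 34.5 and 44.5 CPM, and 50.4, 57.5 and 52.2 CPM in the same order. The Ctrl+vehicle libraries stood above the others at d2.5, and the groups overlapped at d5. The FGF2 effect was -3.48 ± 0.25 on the log2 scale at d2.5 (adjusted p = 9.8e-14) and -0.10 ± 0.19 at d5 (adjusted p = 0.675). The difference between these effects was 3.35 ± 0.42 (adjusted p = 5.3e-08). H19 did not pass the test for the knockdown at d2.5 (adjusted p = 0.290) or at d5 (adjusted p = 0.351).

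The receptors were measured at a steadier level. Igf1r, the signalling receptor, maps to chromosome 7 (67952827 to 68233668, plus strand). At d2.5 its level was 155, 145 and 150 CPM in Ctrl+vehicle, 141, 142 and 144 CPM in Ctrl+FGF2 and 153, 147 and 147 CPM in Y/T dKD+FGF2. Its d5 level was 143, 167 and 156 CPM in Ctrl+vehicle, 225, 232 and 228 CPM in Ctrl+FGF2 and 234, 242 and 250 CPM in Y/T dKD+FGF2. The d5 libraries with FGF2 thus lay above all others. FGF2 raised Igf1r 1.48-fold at d5 (log2 fold change 0.57 ± 0.05, adjusted p = 3.0e-08). At d2.5 the change was -0.09 ± 0.04 (adjusted p = 0.0323), a call that stood in 2 of the 9 fits that left out 1 library, those without Ctrl+vehicle replicate 2 and without Y/T dKD+FGF2 replicate 3. In the other 7 the adjusted p was 0.0561 to 0.132. The FGF2 effects of the days differed by 0.63 ± 0.06 (adjusted p = 4.1e-10). The knockdown gave 0.06 ± 0.04 at d2.5 and 0.08 ± 0.05 at d5 and did not pass the test (adjusted p = 0.246 and 0.216).

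Igf2r, which clears IGF2, maps to chromosome 17 (12682406 to 12769664, minus strand). Its level at d2.5 was 221, 196 and 211 CPM in Ctrl+vehicle, 200, 204 and 204 CPM in Ctrl+FGF2 and 182, 195 and 181 CPM in Y/T dKD+FGF2. At d5 it was 506, 527 and 512 CPM, 441, 476 and 468 CPM, and 392, 437 and 408 CPM in the same order. The d5 libraries were all above the d2.5 libraries, and at d5 the 3 groups did not overlap. The day difference was 1.30 ± 0.04 on the log2 scale for Ctrl+vehicle, and with FGF2 it was 1.19 ± 0.04 without and 1.15 ± 0.04 with the knockdown. At d5 Igf2r fell by 0.14 ± 0.04 with FGF2 (adjusted p = 0.0078) and by 0.17 ± 0.04 with the knockdown (adjusted p = 0.0043). At d2.5 it fell by 0.13 ± 0.04 with the knockdown (adjusted p = 0.0144). That call was lost without Ctrl+FGF2 replicate 2 or 3 and without Y/T dKD+FGF2 replicate 1 or 3 (adjusted p = 0.0517 to 0.0859). The FGF2 change at d2.5 was -0.06 ± 0.04 (adjusted p = 0.188).

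Among the binding proteins Igfbp4, which mostly restrains IGF action in bone cells, had the highest level in CPM in every group. It maps to chromosome 11 (99041244 to 99054392, plus strand). At d2.5 its level was 544, 560 and 553 CPM in Ctrl+vehicle, 217, 220 and 219 CPM in Ctrl+FGF2 and 233, 232 and 217 CPM in Y/T dKD+FGF2. By d5 the level was 783, 800 and 798 CPM in Ctrl+vehicle, 1145, 984 and 1063 CPM in Ctrl+FGF2 and 1192, 1197 and 1171 CPM in Y/T dKD+FGF2. The order of the groups turned between the days, with the Ctrl+vehicle libraries the highest at d2.5 and the lowest at d5. Igfbp4 fell by 1.35 ± 0.03 on the log2 scale with FGF2 at d2.5 (2.55-fold lower, adjusted p = 1.7e-25) and rose by 0.44 ± 0.04 at d5 (1.35-fold higher, adjusted p = 2.9e-07). The difference between these effects was 1.76 ± 0.06 (adjusted p = 3.8e-21). With the knockdown it rose by 0.15 ± 0.04 at d5 (adjusted p = 0.0115), a call that was lost without Ctrl+FGF2 replicate 2 of d5 (adjusted p = 0.0621), and it did not pass the test at d2.5 (log2 fold change 0.05 ± 0.03, adjusted p = 0.346).

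Igfbp7, a secreted binding protein also found in extracellular matrix, changed with FGF2 in a like manner. It maps to chromosome 5 (77349240 to 77408041, minus strand). Its level at d2.5 was 46.7, 50.2 and 48.2 CPM in Ctrl+vehicle, 17.7, 17.9 and 18.5 CPM in Ctrl+FGF2 and 16.5, 12.9 and 14.4 CPM in Y/T dKD+FGF2. At d5 it was 47.5, 46.0 and 49.2 CPM, 52.6, 50.5 and 53.3 CPM, and 41.6, 40.6 and 41.1 CPM in the same order. The libraries with FGF2 were the low ones at d2.5, while at d5 the Y/T dKD+FGF2 libraries were the lowest and the Ctrl+FGF2 libraries the highest, with no overlap. FGF2 lowered Igfbp7 2.70-fold at d2.5 (log2 fold change -1.44 ± 0.07, adjusted p = 3.6e-18). The effect differed at d5 by 1.55 ± 0.09 (adjusted p = 1.1e-15), where the change itself was 0.14 ± 0.05 (adjusted p = 0.0309). The d5 call was lost without Ctrl+vehicle replicate 1 or 2 and without Ctrl+FGF2 replicate 1 or 3 (adjusted p = 0.0515 to 0.118). Igfbp7 fell with the knockdown on both days, by 0.32 ± 0.09 at d2.5 (adjusted p = 0.0064) and by 0.35 ± 0.05 at d5 (adjusted p = 6.7e-05). The d2.5 call was lost without Y/T dKD+FGF2 replicate 2 (adjusted p = 0.0539). An exon of Polr2b lies on the opposite strand over part of Igfbp7, and the counts used here were those of 1 strand.

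Igfbp6, which prefers IGF2 over IGF1, was lower with FGF2 and lower again with the knockdown. It maps to chromosome 15 (102144362 to 102149511, plus strand). At d2.5 its level was 121, 117 and 117 CPM in Ctrl+vehicle, 98.6, 108 and 105 CPM in Ctrl+FGF2 and 71.3, 79.8 and 66.3 CPM in Y/T dKD+FGF2. The d5 level was 91.9, 90.8 and 90.2 CPM, 77.3, 79.2 and 82.8 CPM, and 70.8, 70.9 and 69.9 CPM in the same order. No 2 groups of the same day overlapped. The FGF2 change was -0.20 ± 0.05 at d2.5 (adjusted p = 4.0e-04) and -0.18 ± 0.04 at d5 (adjusted p = 0.0027). The knockdown lowered it by 0.52 ± 0.05 at d2.5 (1.44-fold lower, adjusted p = 6.5e-09) and by 0.18 ± 0.04 at d5 (adjusted p = 0.0040), a difference between days of 0.34 ± 0.07 (adjusted p = 0.0011).

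Igfbp3, the main carrier of IGFs in serum, differed with FGF2 at d5. It maps to chromosome 11 (7206086 to 7213923, minus strand). Its level at d2.5 was 10.1, 12.5 and 12.8 CPM in Ctrl+vehicle, 13.0, 12.2 and 12.5 CPM in Ctrl+FGF2 and 11.5, 11.7 and 12.0 CPM in Y/T dKD+FGF2. The d5 libraries held 46.1, 49.7 and 46.4 CPM, 30.0, 26.1 and 30.7 CPM, and 29.3, 37.4 and 33.6 CPM in the same order. The Ctrl+vehicle libraries of d5 were the highest, and the 2 groups with FGF2 overlapped. Igfbp3 fell by 0.70 ± 0.08 with FGF2 at d5 (1.63-fold lower, adjusted p = 1.4e-06). At d2.5 the log2 fold change was 0.08 ± 0.10, with means of 11.8 CPM in Ctrl+vehicle and 12.5 CPM in Ctrl+FGF2, and did not pass the test (adjusted p = 0.502). The difference between these effects was -0.81 ± 0.13 (adjusted p = 4.6e-06). The knockdown difference at d5 was 0.21 ± 0.08 (adjusted p = 0.0739), and it passed the test without Y/T dKD+FGF2 replicate 1 (0.29, adjusted p = 0.0162).

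Igfbp5, the binding protein most often tied to bone matrix, was measured at a low level and was high in 1 group. It maps to chromosome 1 (72857932 to 72874884, minus strand). At d5 its level was 5.19, 4.90 and 4.48 CPM in the Y/T dKD+FGF2 libraries, 0.368, 0.163 and 0.898 CPM in Ctrl+FGF2 and 0.704, 0.333 and 0.449 CPM in Ctrl+vehicle. At d2.5 it was 0.207, 0.129 and 0.155 CPM in Ctrl+vehicle, from 7 counts, and 0 counts fell on it in the 6 libraries with FGF2. Each Y/T dKD+FGF2 library of d5 thus lay above every other library. These levels rest on 164 counts in Y/T dKD+FGF2 against 16 in Ctrl+FGF2 and 16 in Ctrl+vehicle. The knockdown ratio at d5 was 10.5 in scaled counts (95% interval 6.25 to 18.7, counting error only), and the fit gave a log2 fold change of 3.35 ± 0.32 (adjusted p = 2.8e-07). Igfbp5 passed the filter on low counts at d5 through the libraries in which it was high, so that it had to differ once tested. The d5 level was also set against d2.5, with 0 counts there set to a floor of 3 counts over the group. By that floor it was 61.2-fold higher in Y/T dKD+FGF2 and 6.67-fold higher in Ctrl+FGF2. Without the floor, the lower ends of the 95% intervals were 49.2-fold and 4.82-fold (counting error only). Igfbp5 was not tested at d2.5, and its FGF2 change at d5 was -0.04 ± 0.54 (adjusted p = 0.961). The printed Igfbp5 window with its TEAD letters is 1 of 4 windows of the 10 genes with that match, and the other 3 belong to Igf2.

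Igfbp2, which maps to chromosome 1 (72824503 to 72852474, plus strand), had 0 counts among the 223702504 gene counts of the 18 libraries, in the counts of either strand setting. A count of 0 allows a level of up to 0.0134 CPM (3 counts).

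**Figure D2:**
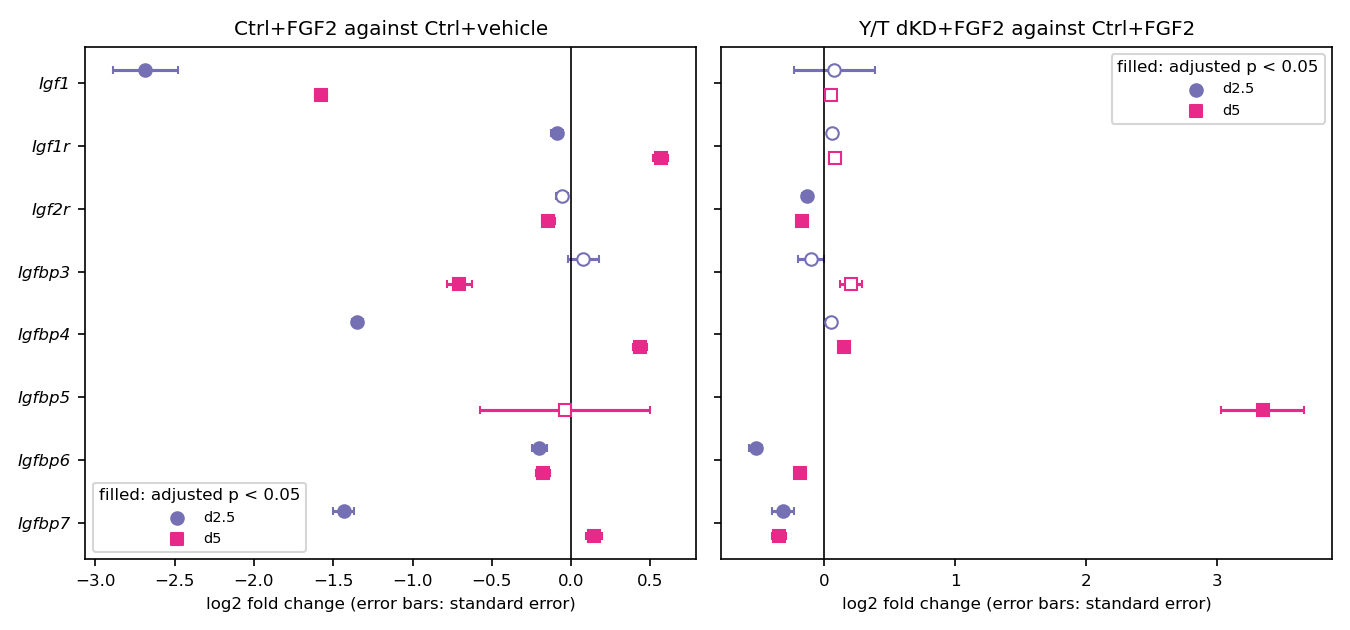
Log2 fold changes (x axis; error bars, standard error) of the 8 IGF genes tested, for Ctrl+FGF2 against Ctrl+vehicle (left) and Y/T dKD+FGF2 against Ctrl+FGF2 (right), with circles for d2.5 and squares for d5, filled where the adjusted p was under 0.05. The x axes differ; Igf1 lay at -2.68 and -1.58 for FGF2, Igfbp4 turned from -1.35 to 0.44, and Igfbp5, tested at d5 only, lay at 3.35 for the knockdown.

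Counted over the 10 genes, FGF2 raised 0 and lowered 5 of the 7 tested at d2.5, where 33.5% of all 13677 genes tested were called higher and 34.1% lower. At d5 it raised 3 and lowered 4 of 8 (23.5% and 23.7% of 13304 genes). The knockdown raised 0 and lowered 3 of 7 at d2.5 (10.8% and 13.6% of all genes) and raised 2 and lowered 3 of 8 at d5 (15.6% and 16.1%). Between Y/T dKD+FGF2 and Ctrl+vehicle, 0 were higher and 5 lower of 7 at d2.5 (34.1% and 35.7%), and 3 were higher and 5 lower of 8 at d5 (20.7% and 21.1%). The FGF2 effect was higher at d5 than at d2.5 for 5 of 8 genes and lower for 1 (31.8% and 29.1% of 14198 genes), and the knockdown effect was higher for 1, Igfbp6, and lower for 0 (11.6% and 9.35%). The d5 libraries were higher than the d2.5 libraries for 5 and lower for 1 of 8 genes in Ctrl+vehicle (33.1% and 33.2%), for 7 and 1 in Ctrl+FGF2 (41.2% and 38.8%), and for 7 and 0 with the knockdown (40.3% and 38.1%). The Ctrl+vehicle count includes Igfbp5, whose call was lost without replicate 2 or 3 of d2.5 or 1 or 3 of d5 (adjusted p = 0.0571 to 0.148). The 8 tested at d5 and between days include Igfbp5, which passed the filter through its high group. It is also 1 of the 5 genes with a higher FGF2 effect at d5, a value that rests on 7 and 0 counts in Ctrl+vehicle and Ctrl+FGF2 at d2.5 and 16 and 16 counts at d5. With so many genes called in each comparison, the counts of IGF genes are not by themselves a result. The FGF2 and knockdown comparisons share the Ctrl+FGF2 libraries and are given side by side only.

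The make-up of the binding proteins was compared per length, as CPM per kb of exon, since longer transcripts collect more reads. The summed level of the 6 genes was 275 ± 2.10 CPM per kb (SD, n = 3) for Ctrl+vehicle at d2.5, and lower with FGF2, at 162 ± 4.45 without and 133 ± 7.30 with the knockdown. The d5 sums were 316 ± 1.71, 365 ± 19.1 and 378 ± 3.79 CPM per kb in the same order. At d2.5 Igfbp4 made up 45.5% ± 0.391 of this sum for Ctrl+vehicle, 30.6% ± 0.691 of it for Ctrl+FGF2 and 38.9% ± 0.845 with the knockdown. Igfbp6 made up 38.6% ± 0.950, 57.7% ± 0.988 and 49.1% ± 2.21, so that Igfbp6 and not Igfbp4 led in both groups with FGF2. At d5 Igfbp4 led in every group, with 56.9% ± 0.368, 65.9% ± 1.70 and 71.2% ± 0.193. The share of Igfbp7 was 14.5% ± 0.424 in Ctrl+vehicle and 9.23% ± 0.222 in Ctrl+FGF2 at d2.5. The same groups had an Igfbp7 share of 12.5% ± 0.408 and 11.8% ± 0.385 at d5. Shares of 1 sum move together, and no test was made on them. Per length Igf1 was at 77.5 ± 2.37 CPM per kb in Ctrl+vehicle at d5, below the 180 ± 2.05 CPM per kb of Igfbp4. Igf1r was at 9.25 ± 0.721 and Igf2r at 55.3 ± 1.13. These values depend on the length used, which was all exon bases of a gene. That was 9904 bases for Igf1, 4416 for Igfbp4, 16791 for Igf1r and 9308 for Igf2r. Their longest transcripts have 7052, 3831, 11409 and 8887 bases in the same order.

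**Figure D3:**
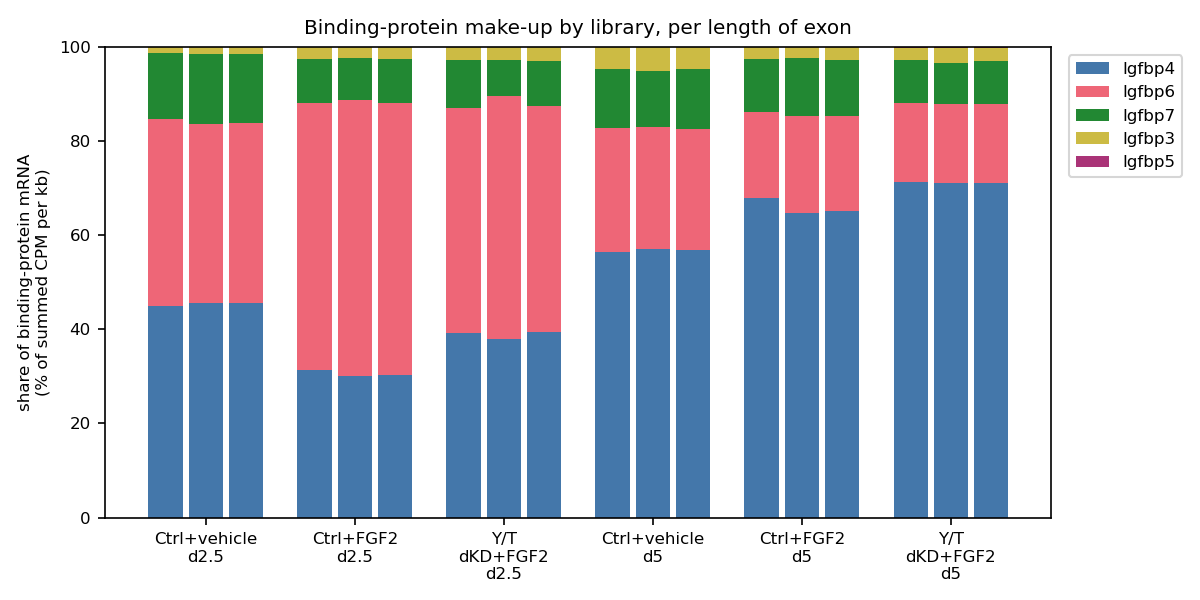
Share of each binding protein in the summed level of the binding proteins (y axis, % of summed CPM per kb of exon), 1 stacked bar for each of the 18 libraries, in 6 groups of 3 (x axis). Igfbp6 held the largest share at d2.5 in the groups with FGF2 (57.7% and 49.1% on average) and Igfbp4 in the other 4 groups; Igfbp5 is too low to see.

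The other genes of the pathway were read from a list of 34, of which 29 were tested on both days. FGF2 raised 7 and lowered 14 of them at d2.5, where 33.5% of all genes tested were called higher and 34.1% lower (median log2 fold change -0.14, against 0.00 over all genes). It raised 14 and lowered 8 at d5, against 23.5% and 23.7% of all genes (median 0.11, against 0.02). The knockdown raised 8 and lowered 6 at d2.5 (10.8% and 13.6% of all genes, median 0.02) and raised 5 and lowered 6 at d5 (15.6% and 16.1%, median -0.07), beside medians of 0.00 over all genes. Of the 5 proteases of the binding proteins and protease inhibitors, FGF2 raised 2 and lowered 1 at d2.5 and raised 1 and lowered 4 at d5. Of the 6 receptor adaptors tested it raised 0 and lowered 5 at d2.5 and raised 3 and lowered 1 at d5, and of the 13 genes of the PI3K-AKT-FoxO arm it raised 4 and lowered 6 at d2.5 and raised 7 and lowered 3 at d5.

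Stc2 and Stc1 encode stanniocalcins, which inhibit the PAPP-A protease that cleaves IGFBP4. Stc2 rose from 5.93 to 32.4 CPM with FGF2 at d2.5 (log2 fold change 2.44 ± 0.09, adjusted p = 2.1e-20) and fell from 8.76 to 2.05 CPM at d5 (-2.05 ± 0.29, adjusted p = 1.3e-05). Stc1 rose by 0.59 ± 0.14 at d2.5 (adjusted p = 5.0e-04) and fell by 1.88 ± 0.25 at d5 (adjusted p = 7.9e-06). Both genes thus changed with FGF2 in opposite directions on the 2 days. With the knockdown, Stc1 rose by 0.52 ± 0.12 at d2.5 (adjusted p = 0.0024) and by 1.36 ± 0.27 at d5 (adjusted p = 7.2e-04), from 2.60 to 6.68 CPM. Stc2 fell by 0.27 ± 0.07 with the knockdown at d2.5 (adjusted p = 0.0051).

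Pappa, which encodes the protease PAPP-A, rose from 15.7 ± 1.54 to 22.0 ± 2.05 CPM (SD, n = 3) with the knockdown at d5 (log2 fold change 0.47 ± 0.10, adjusted p = 0.0012). It fell with FGF2 by 0.93 ± 0.09 at d5 (adjusted p = 4.0e-07), from 30.2 ± 2.40 CPM in Ctrl+vehicle. At d2.5 Pappa was low, at 1.99 CPM in Ctrl+vehicle, 0.724 CPM in Ctrl+FGF2 and 1.645 CPM in Y/T dKD+FGF2. These means rest on 85, 31 and 62 counts. On that day Pappa fell by 1.46 ± 0.28 with FGF2 (adjusted p = 2.9e-05) and rose by 1.17 ± 0.30 with the knockdown (adjusted p = 0.0039). Its values other than that of the knockdown at d5 were chosen after they were seen.

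Irs1, an adaptor that couples IGF1R to PI3K, fell from 46.7 to 8.19 CPM with FGF2 at d2.5 (log2 fold change -2.53 ± 0.08, adjusted p = 2.9e-22). At d5 Irs1 was at 68.8 CPM in Ctrl+vehicle and 71.8 CPM in Ctrl+FGF2, with overlapping libraries. Grb14, an adaptor that inhibits insulin receptor signalling, fell by 2.06 ± 0.06 at d2.5 (adjusted p = 6.0e-23) and by 1.16 ± 0.05 at d5 (adjusted p = 2.3e-11). Irs2 rose by 0.50 ± 0.05 with FGF2 at d5 (adjusted p = 4.2e-07), whereas at d2.5 its mean was 54.6 CPM in Ctrl+vehicle and 46.8 CPM in Ctrl+FGF2. Gab1, a docking protein, fell by 0.37 ± 0.05 with the knockdown at d5 (adjusted p = 4.4e-05). Igf2bp2, an RNA-binding protein named for its binding of Igf2 mRNA, rose by 0.58 ± 0.04 with FGF2 at d2.5 (adjusted p = 5.1e-15).

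In the PI3K-AKT-FoxO arm, Foxo3, a transcription factor that AKT restrains, rose from 251 to 387 CPM with FGF2 at d5 (0.64 ± 0.04, adjusted p = 4.8e-10) and fell to 262 CPM with the knockdown (-0.57 ± 0.04, adjusted p = 3.7e-09). Both d5 values share the Ctrl+FGF2 libraries. At d2.5 the mean of Foxo3 was 163 CPM in Ctrl+vehicle and 123 CPM in Ctrl+FGF2. Pik3r3, a regulatory subunit of PI3K, rose with the knockdown from 2.43 to 3.65 CPM at d2.5 (0.56 ± 0.19, adjusted p = 0.0294) and from 4.68 to 12.4 CPM at d5 (1.40 ± 0.13, adjusted p = 1.5e-07). Akt2 fell with the knockdown by 0.25 ± 0.04 at d2.5 (adjusted p = 3.7e-05) and by 0.45 ± 0.04 at d5 (adjusted p = 1.4e-07). Pik3r2 fell by 0.21 ± 0.04 with the knockdown at d2.5 (adjusted p = 2.9e-04).

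**Figure D4:**
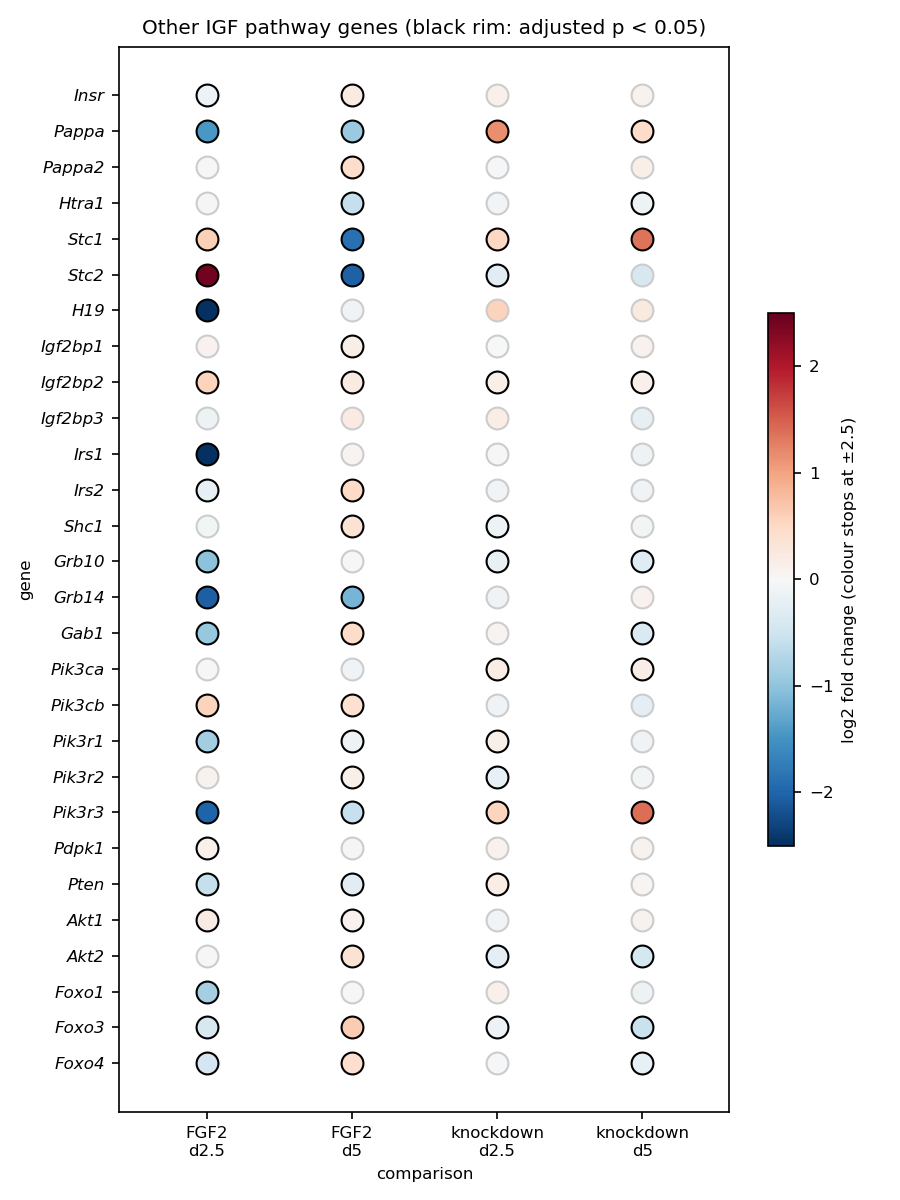
Log2 fold change (colour, cut at 2.5 in either direction) of 28 of the 29 other IGF pathway genes tested (y axis) with FGF2 (Ctrl+FGF2 against Ctrl+vehicle) and with the knockdown (Y/T dKD+FGF2 against Ctrl+FGF2) on each day (x axis), with a black rim where the adjusted p was under 0.05. Stc2 turned from 2.44 at d2.5 to -2.05 at d5 with FGF2, and Pik3r3 and Stc1 rose with the knockdown on both days.

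The genes with the pattern most like each IGF gene were taken by Pearson's r of log2 CPM over the 18 libraries, which share their days, depth and scaling, so that r is high wherever the days differ. For Igf1 Ppp3ca was among them (r = 0.996), and for Igf2r they were Htra1 (r = 0.995) and Cercam (r = 0.994). Igfbp4 was closest to Capzb (r = 0.995) and Natd1 (r = 0.995), and Igfbp7 to Gnao1 (r = 0.993) and Fig4 (r = 0.987). Igfbp3 was closest to Klf9 (r = 0.985) and Rnf11 (r = 0.985), and Igf1r to Sdc4 (r = 0.979) and Ldhb (r = 0.973). Lower values were found for Igfbp6, with Atp13a1 (r = 0.955) and Slc46a1 (r = 0.906), and for Igfbp5, with Plin2 (r = 0.953) and Rreb1 (r = 0.943). Igfbp5 had 164 counts in Y/T dKD+FGF2 at d5, at most 16 in any other group, and 0 in the d2.5 groups with FGF2. Its r thus rests on few counts outside that 1 group.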

How the data were processed

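For each of 18 libraries the authors deposited raw counts of reads on each gene, not normalized. The submitters' processing notes name FastQC, STAR, Picard, featureCounts and mm10, with no versions. The counts of the strand that held 96.0% to 96.6% of stranded counts were used, and entries naming no gene (27.0% to 34.4% of a library) were left out. Of 55335 gene identifiers 55154 matched GENCODE M21 (GRCm38), from which names, coordinates and exon lengths were taken. Promoter windows are from RefSeq. Gene counts per library ranged from 10377151 to 14698525 (median 12330911).

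The quasi-likelihood test of edgeR 4.0.16 (R 4.3.3), with TMM factors and filterByExpr, was fitted to the 9 libraries of a day. Differences between days were fitted to all 18 libraries. All adjusted p-values are Benjamini-Hochberg over all genes tested and come from this test. Levels are CPM scaled over all 18 libraries. A standard error is the size of the log2 fold change over the root of its F statistic. The test was tried on simulated counts first.

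Named genes were the 10 IGF genes, Yap1, Wwtr1, H19, marker genes, up to 3 called pathway genes with the largest rise and up to 3 with the largest fall in each FGF2 and knockdown comparison (mean log2 CPM of at least 1, no overlap of replicates), and for each IGF gene tested the 2 with the highest r; 2 genes that this rule named are not reported here. The members and lists were chosen with earlier results of these data known. Alternatives were DESeq2 1.42.0, other size factors and filters, unstranded counts, only the groups compared, all 18 libraries in 1 fit, a replicate block, other thresholds and leaving out each library. The CUT&Tag-seq data of the study were not analysed here.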

Additional observations from a re-analysis of the deposited data

Results flagged for a closer look

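The FGF2 effect (Ctrl+FGF2 against Ctrl+vehicle) differed between d5 and d2.5 for 5 of the IGF genes and for H19. The difference was tested in the fit of all 18 libraries. Over all 14198 genes tested it was called higher at d5 for 31.8% and lower for 29.1%. The count of IGF genes is thus not by itself a result. As d5 minus d2.5 on the log2 scale the difference was 1.08 for Igf1 (a fall on both days), 0.63 for Igf1r, -0.81 for Igfbp3, 1.76 for Igfbp4, 1.55 for Igfbp7 and 3.35 for H19. Igfbp4 changed direction between the days, from -1.35 to 0.44, with no overlap of the groups on either day. The knockdown effect differed between days for Igfbp6, by 0.34, where 11.6% of all genes were called higher and 9.35% lower. These calls of the IGF genes and H19 held in each of the 18 fits that left out 1 library. Igfbp5 also passed (adjusted p = 0.0186, edgeR), but it is not counted among the 5 and its size is not given. It entered the test through its level in Y/T dKD+FGF2 at d5, a group outside the comparison, and the comparison itself rests on 7, 0, 16 and 16 counts in Ctrl+vehicle and Ctrl+FGF2 at d2.5 and d5. Each day is its own batch in the labels, so that day and batch cannot be told apart.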

How the results depend on the processing

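Of 2033 alternative fold changes of the IGF genes and H19, 1950 kept their direction and side of the threshold, 30 were no longer called, 14 became called and 39 changed sign. The 39 passed the test neither before nor after. The FGF2 calls of Igf1r at d2.5 and Igfbp7 at d5 were lost with DESeq2 (adjusted p = 0.0559 and 0.184), without a filter (0.103 and 0.101) and with all 18 libraries in 1 fit (0.123 and 0.0611). That of Igf1r was also lost with unstranded counts (0.0510) and that of Igfbp7 with only the 2 groups compared (0.0701). Calls gained were the FGF2 fall of Igf2r at d2.5 with upper-quartile factors (0.0419), the knockdown rise of Igfbp3 at d5 without a filter (0.0348) and with all 18 libraries in 1 fit (0.0488), and the knockdown rise of H19 without a filter at d2.5 (0.0194) and d5 (0.0013) and with only the 2 groups compared at d2.5 (0.0161). The cause was not tested. Counts of 0 and the 16 counts of Igfbp5 in Ctrl+FGF2 at d5 limit what can be said of Igfbp2 and Igfbp5, and exon bases shared with another gene limit Igf2.

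Where a call also needed a 2-fold change, there were 3 (FGF2), 0 (knockdown) and 3 (Y/T dKD+FGF2 less Ctrl+vehicle) of the IGF genes at d2.5 and 1, 1 and 2 at d5, and 0 for the difference of the knockdown effect between days. Of the pathway list they numbered 7, 1 and 7 at d2.5 and 3, 2 and 2 at d5. Over all genes tested the same rule called 13.9%, 0.592% and 15.2% at d2.5 and 5.80%, 3.19% and 4.83% at d5, and 2.32% for the difference of the knockdown effect. Igfbp5 was the 1 IGF gene called by this rule for the knockdown at d5, and 1 of the 2 for Y/T dKD+FGF2 less Ctrl+vehicle. It passed the filter on low counts through its high group, so that it had to differ once tested. The difference of the knockdown effect was called for 1 to 2 IGF genes when 1 library was left out. There were 2 without Ctrl+FGF2 replicate 1 or Y/T dKD+FGF2 replicate 1 of d5. Without the former, 1604 of all 14424 genes tested were called higher and 1236 lower. Without the latter, 1466 of all 14432 genes tested were called higher and 1113 lower.

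Values that changed sign were, for the difference of the FGF2 effect of Igfbp6 between days, -0.0258 with RLE factors and -0.0259 with DESeq2. For the difference of the knockdown effect they were -0.00691 (upper-quartile factors), -0.00348 (no filter) and -2.15e-05 (at least 10 counts in every library) for Igf1r and 0.00789 (unstranded counts) for Igfbp7. The day difference of Igf1r in Ctrl+vehicle was -0.0428 with upper-quartile factors. When 1 library was left out, the FGF2 value ranged from -0.0277 to 0.134 for Igfbp3 at d2.5, from -0.863 to 0.399 for Igfbp5 at d5 and from -0.334 to 0.196 for H19 at d5. The knockdown value of Igf1 at d2.5 ranged from -0.0757 to 0.300. The difference of Y/T dKD+FGF2 from Ctrl+vehicle ranged from -0.130 to 0.0313 for Igfbp3 at d2.5 and from -0.0890 to 0.434 for H19 at d5. The difference between days ranged from -0.0365 to 0.0215 for the FGF2 effect of Igfbp6, and for the knockdown effect from -0.260 to 0.112 (Igf1), -0.00896 to 0.0379 (Igf1r) and -0.124 to 0.0630 (Igfbp7). The d5 against d2.5 value ranged from -0.00369 to 0.107 for Igf1r and -0.0566 to 0.00345 for Igfbp7 in Ctrl+vehicle, and from -0.103 to 0.0141 for Igfbp6 in Y/T dKD+FGF2.

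Shares of the binding proteins moved by more than 1 SD with the longest transcript as length, given here in the order vehicle, FGF2, knockdown. Igfbp4 came to 48.8%, 33.5% and 42.0% at d2.5 and 59.5%, 68.5% and 73.4% at d5. Igfbp6 came to 36.0%, 54.7% and 46.0%, and 23.5%, 17.8% and 15.0%. Igfbp7 came to 13.6% and 8.81% in Ctrl+vehicle and Ctrl+FGF2 at d2.5, and to 11.4%, 10.7% and 8.12% at d5. With unstranded counts the shares that moved were those of Igfbp4 (46.2% in Ctrl+vehicle at d2.5, 57.9% in Ctrl+vehicle and 72.0% in Y/T dKD+FGF2 at d5), Igfbp6 (26.4% and 17.0% in the same groups of d5) and Igfbp7 (13.0% and 8.18% in Ctrl+vehicle and Ctrl+FGF2 at d2.5, and 10.8%, 10.4% and 7.92% at d5).

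Replicate numbers are shared between groups, but libraries of the same number did not generally deviate together. Their correlation was -0.0820 to 0.0424 at d2.5 and -0.0629 to 0.157 at d5, with 2 of 9 pairs over 0.1, and 4 of 18 and 6 of 18 comparisons had the own number as the best. Ctrl+vehicle and Ctrl+FGF2 at d5 differed from this. Their pairs of the same number had 0.145, 0.157 and 0.0273, and their pairs of unlike number were all negative. With a replicate block no call of an IGF gene or H19 changed, and the FGF2 comparison gave 5 called IGF genes of 7 at d2.5, where it called 67.1% of all genes, and 7 of 8 at d5, where it called 47.7%.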
